A study of Mus musculus with 12 samples.

Results

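The HoxC and HoxD genes described here are Hoxc4, Hoxc5, Hoxc6, Hoxc8, Hoxc9, Hoxc10, Hoxd3, Hoxd4, Hoxd8 and Hoxd9, found by symbol in a table of raw read counts and read along each cluster in paralogue order. Of these 10 genes, 8 had a row among the 31099 gene rows of the table, and all 8 passed the filter on low counts. Hoxd3 and Hoxd4 were not analysed here. The RNA came from cells sorted by flow cytometry from wild type CD-1 mouse pups of both sexes at 3 days of age. The 4 groups were preadipocytes of perivascular fat around the thoracic aorta, progenitors of the same fat, ICAM1+ preadipocytes of inguinal white fat and DPP4+ progenitors of inguinal white fat, with 3 libraries each. Per the labels, a replicate number stands for a pool of mice that gave both depots, and no group carried an allele or a treatment. How the perivascular populations were gated is not stated in the labels. The study's title asks about the lineage of thermogenic perivascular fat, and the contrasts of depot and of stage follow from the groups.

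Hox genes encode homeodomain transcription factors that lie in 4 clusters in mammals, and their order on the chromosome follows the order in which they are used from head to tail in the embryo. Low paralogue numbers mark anterior levels and high numbers posterior levels, and fat cells and fibroblasts of the adult keep such a positional Hox profile. Pbx, Meis and Pknox proteins (the TALE class) bind DNA together with Hox proteins, and Polycomb and Trithorax group proteins keep the clusters silent or active. In mouse fat, Hoxc9 and Hoxc10 are known as genes of subcutaneous white fat, Hoxc10 as a repressor of browning, and Hoxc8 as a target of the microRNA miR-196a, which favours brown-type differentiation of white fat progenitors.

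In mouse build mm10 both clusters lie on the plus strand, with the posterior genes at the lower coordinates. On chromosome 15, Hoxc10 spans 102966796 to 102971893, Hoxc9 102976439 to 102985099, Hoxc8 102990607 to 102994111 and Hoxc6 102998257 to 103011881. Hoxc5 is annotated from 102967443 to 103017429, because 1 of its 2 transcripts starts inside Hoxc10, and Hoxc4 from 103018934 to 103036852. On chromosome 2, Hoxd9 spans 74697727 to 74700208 and Hoxd8 74704615 to 74707933. Hoxc5 and Hoxc10 share 166 exon bases, 5.37% of the Hoxc5 exon length and 8.7% of that of Hoxc10, so reads there can be assigned to either. The other 6 tested members share no exon base with another annotated gene. Their longest identical stretch with a transcript of another gene was between 27 bases (Hoxc6 and Hoxd8) and 73 bases (Hoxc9).

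The mature miR-196a from Mir196a-2 is shown because its gene lies inside the HoxC cluster between Hoxc10 and Hoxc9 (mature sequence at chr15:102973365-102973386, plus strand, RefSeq, GRCm38.p6), 1 member holds matches to its seed, and that member changed with stage in both depots. Capitals mark the seed, bases 2 to 8, in the microRNA and the match to it (ACTACCT, sense strand) in the sites, which are given 5′ to 3′ from the longest annotated Hoxc8 3′ UTR of 966 bases.
mmu-miR-196a-5p: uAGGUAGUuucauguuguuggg
Hoxc8 site at UTR base 135: acactcacaactctaACTACCTg
Hoxc8 site at UTR base 892: ataaatctttaacatACTACCTa
No such match was found in the longest 3′ UTR of any other member. Of 21022 genes with an annotated 3′ UTR, 6.55% held at least 1 in any of their 3′ UTRs, a wider search than that of the members. The microRNA itself was not measured, and a match is a description of letters only.

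The windows upstream of Hoxd8 and Hoxd9 are shown because these neighbours were both low in perivascular fat. They are from RefSeq (GRCm38.p6, plus strand), at chr2:74704365-74704614 for Hoxd8 and, ended before the annotated exon, at chr2:74697513-74697726 for Hoxd9. Capitals mark a match to CCAAT, found 62 bases before the start of Hoxd8.
Hoxd8: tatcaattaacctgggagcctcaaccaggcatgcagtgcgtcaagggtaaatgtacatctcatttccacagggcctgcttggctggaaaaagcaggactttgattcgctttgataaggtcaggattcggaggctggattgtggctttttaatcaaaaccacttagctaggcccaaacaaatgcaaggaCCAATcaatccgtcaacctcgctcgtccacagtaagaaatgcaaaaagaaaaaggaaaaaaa
Hoxd9: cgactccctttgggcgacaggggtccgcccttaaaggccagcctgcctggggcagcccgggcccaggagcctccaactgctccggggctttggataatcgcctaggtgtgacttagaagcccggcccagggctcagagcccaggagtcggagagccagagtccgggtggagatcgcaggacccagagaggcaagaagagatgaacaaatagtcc
The Hoxd8 window was 44.4% G and C with 6 CpG dinucleotides, and the Hoxd9 window 63.6% with 10. Among 250-base windows of 32851 promoters, both strands searched, CCAAT was present in 33.8%, the TATA box letters TATAAA in 12.4% and the Pbx-Hox composite letters TGATNNAT in 7.68%. Neither window held TATAAA or TGATNNAT, and the Hoxd9 window held no CCAAT.

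Library totals ran from 15614628 to 25674461 counts, so 1 count was worth 0.0387 to 0.0820 CPM (counts relative to library size, with TMM factors). The sorted markers followed the labels in inguinal fat: Icam1 averaged 497 ± 11.1 CPM in ICAM1+ preadipocytes and 61.7 ± 15.8 CPM in DPP4+ progenitors (SD, n = 3 each), and Dpp4 averaged 32.0 ± 4.42 CPM and 1510 ± 72.6 CPM in the same groups. In perivascular fat Icam1 ran the other way, at 39.5 ± 11.9 CPM in preadipocytes and 96.0 ± 6.05 CPM in progenitors. Dpp4 averaged 5.08 ± 2.25 CPM and 89.4 ± 7.56 CPM there. Of 8 preadipocyte markers, 3 were higher and 2 lower in perivascular preadipocytes than in progenitors, against 32.9% of all genes called. In inguinal fat 7 were higher and none was called lower, against 17.9%. Of 8 adipose progenitor markers, 8 were lower in perivascular preadipocytes than in progenitors, against 16.1% of all genes called lower. In inguinal fat 7 of these were lower in preadipocytes and none was called higher, against 8.61% called lower. Between progenitors, 7 of the 8 were lower in perivascular than in DPP4+ cells and none was called higher, against 11.8% called lower. Whether the labels mark equal stages in both depots was not tested. Markers of other cell types also differed with depot. The summed level of 6 Schwann and neural markers was 4.83 to 12.3 CPM in perivascular preadipocytes, 6.04 to 10.5 in perivascular progenitors, 84.2 to 104 in ICAM1+ preadipocytes and 25.9 to 68.1 in DPP4+ progenitors. For 6 mast cell markers these ranges were 17.1 to 23.5, 7.28 to 10.4, 56.2 to 95.6 and 49.1 to 261 CPM. For 5 epithelial markers they were 0.590 to 1.66, 2.22 to 3.57, 14.6 to 19.2 and 2.64 to 9.04 CPM, with Krt5 at 0 in perivascular preadipocytes and DPP4+ progenitors. For 8 mesothelial markers they were 32.0 to 74.5, 130 to 236, 30.4 to 45.7 and 36.0 to 38.6 CPM. Between preadipocytes these 8 went both ways, with 5 called higher in perivascular cells (Msln, Upk3b, Upk1b, Wt1 and Lrrn4). The 3 keratin genes Krt8, Krt18 and Krt19 were called lower, against 23.5% of all genes called higher and 21.4% lower. Upk3b averaged 18.7 CPM in perivascular and 1.47 CPM in ICAM1+ preadipocytes, and Krt8 0.962 and 11.5 CPM. In the order of groups above, the summed level of 6 endothelial markers was 39.8 to 70.1, 164 to 242, 134 to 167 and 717 to 909 CPM. For 6 haematopoietic markers it was 30.1 to 49.5, 23.3 to 61.6, 47.2 to 55.9 and 49.4 to 161 CPM. Most of the endothelial sum in progenitors was Tek, at 684 ± 60.8 CPM in DPP4+ and 115 ± 20.6 CPM in perivascular cells. Pecam1, Tie1 and Emcn averaged 38.7, 22.7 and 6.14 CPM in DPP4+ and 34.2, 19.9 and 5.18 CPM in perivascular progenitors. Kdr and Cdh5 averaged 40.0 and 11.4 CPM against 13.3 and 3.97 CPM. The part of these cells in the differences of Hox genes below was not tested. In sorted bulk samples, fewer cells of a type that expresses a gene and less RNA per cell cannot be told apart. In an earlier analysis of these data 3 libraries stood apart: replicate 1 of both perivascular groups and replicate 2 of the DPP4+ progenitors. Without them, 4 member results turned direction and 5 others became called. The turned results are named below, but not all of the newly called ones.

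Anterior and posterior HoxC genes differed between the depots in opposite directions. Hoxc5, in the anterior part, was higher in perivascular cells at both stages, the central gene Hoxc8 showed no called depot difference, and the posterior genes Hoxc9 and Hoxc10 were lower in perivascular cells at both stages. Hoxc4, the most anterior, was called higher in progenitors and not in preadipocytes, and Hoxc6, which lies between Hoxc5 and Hoxc8, was lower in perivascular preadipocytes and not called in progenitors. Hoxd8 was lower too at both stages. In preadipocytes, 6 of the 8 members were called (edgeR quasi-likelihood test, adjusted p under 0.05), 1 higher and 5 lower in perivascular cells, against 44.9% of all 18855 genes tested (23.5% higher and 21.4% lower). In progenitors, 5 of 8 were called, 2 higher and 3 lower, against 24.9% of all genes (13% higher and 11.8% lower). The median log2 fold change of the 8 members was -1.60 in preadipocytes and -0.995 in progenitors, against medians over all genes of 0.04 and 0.05.

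**Figure D1:**
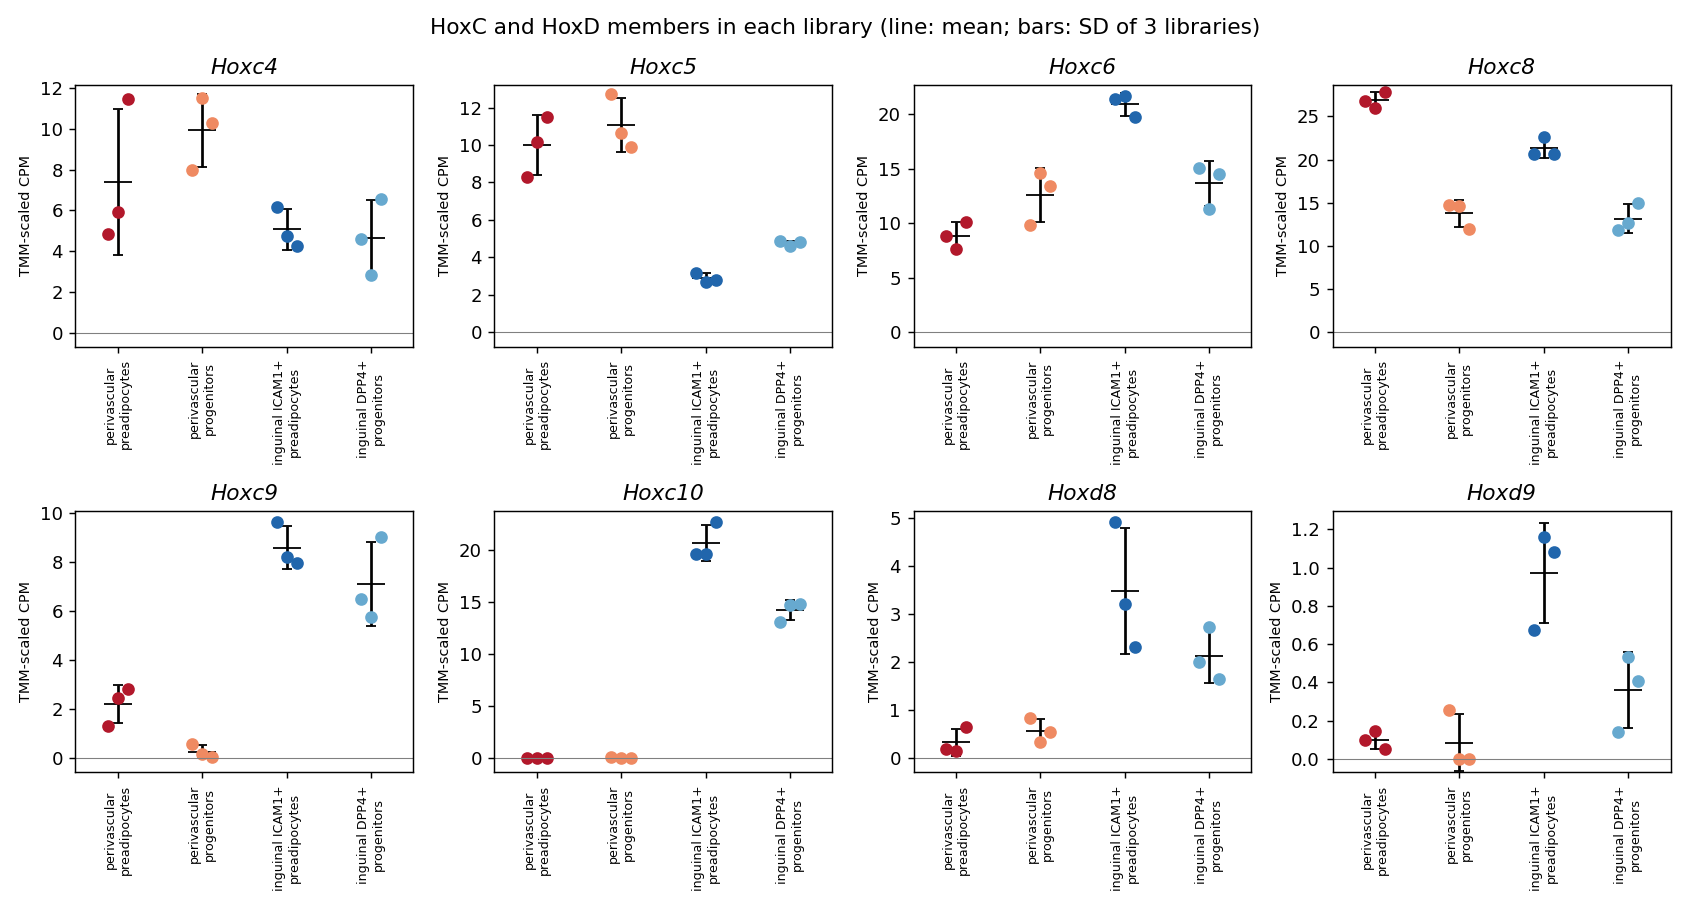
TMM-scaled CPM (linear axes) of the 8 members in each library, by group, with the mean and SD of 3 libraries. Hoxc10 stayed at or below 0.103 CPM in the perivascular libraries and at or above 13.1 CPM in the inguinal ones, and the groups of Hoxc5 also separate by depot.

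Hoxc4, the most anterior of the HoxC genes, had 4.82, 5.92 and 11.5 CPM in perivascular preadipocytes, against 6.19, 4.76 and 4.27 CPM in ICAM1+ preadipocytes. These groups overlap, and the difference was not called (log2 fold change 0.55, SE 0.35, adjusted p = 0.223). In progenitors the values were 8.002, 11.5 and 10.3 CPM in perivascular fat, against 4.57, 2.81 and 6.56 CPM in DPP4+ cells, which do not overlap. The log2 fold change there was 1.10 (SE 0.36, adjusted p = 0.0416). That call was lost without any 1 of 7 libraries (adjusted p up to 0.147), and the preadipocyte difference was called (0.78, adjusted p = 0.024) when the 3 libraries named above were left out.

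Hoxc5, which acts with Hoxa5 in mouse phrenic motor neurons, gave the clearest excess in perivascular cells. It had 8.31, 10.2 and 11.5 CPM in perivascular preadipocytes, against 3.19, 2.67 and 2.78 CPM in ICAM1+ preadipocytes, a log2 fold change of 1.80 (SE 0.19, adjusted p = 3.05e-05). In progenitors it had 12.7, 10.7 and 9.90 CPM in perivascular fat, against 4.86, 4.63 and 4.84 CPM in DPP4+ cells (1.21, SE 0.19, adjusted p = 0.000562). All 6 perivascular libraries were above all 6 inguinal libraries. Hoxc10, with which it shares exon bases, had at most 2 counts in any perivascular library.

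Hoxc6, a gene of the brachial and thoracic level known from mouse limb motor neurons, differed with depot in preadipocytes. It had 8.85, 7.63 and 10.1 CPM in perivascular preadipocytes, against 21.4, 21.6 and 19.7 CPM in ICAM1+ preadipocytes, with no overlap (-1.24, SE 0.19, adjusted p = 0.000341). In progenitors it had 9.86, 14.6 and 13.4 CPM in perivascular fat, against 15.1, 11.3 and 14.5 CPM in DPP4+ cells, and the groups overlap (-0.11, SE 0.19, adjusted p = 0.714).

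Hoxc8 was the member with the highest level per kilobase of exon in perivascular preadipocytes, at 9.49 ± 0.332 CPM per kb (SD, n = 3). It had 26.8, 26.0 and 27.8 CPM there, against 20.7, 22.6 and 20.6 CPM in ICAM1+ preadipocytes. The ranges do not overlap, yet the difference was not called (0.34, SE 0.15, adjusted p = 0.0835). In progenitors it had 14.7, 14.7 and 12.01 CPM in perivascular fat, against 11.8, 12.7 and 15.01 CPM in DPP4+ cells, and the groups overlap (0.07, SE 0.15, adjusted p = 0.786). Scaled by library totals, Hoxc8 was called higher at both stages (0.56, adjusted p = 0.00834 in preadipocytes and 0.51, adjusted p = 0.0191 in progenitors), but that scaling also moved the median of all genes to 0.27 and 0.48.

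Hoxc9 was present in perivascular fat mainly in the preadipocytes. It had 1.33, 2.45 and 2.84 CPM in perivascular preadipocytes, against 9.62, 8.21 and 7.97 CPM in ICAM1+ preadipocytes (-1.96, SE 0.39, adjusted p = 0.00199). In progenitors it had 0.568, 0.173 and 0.0541 CPM in perivascular fat, 15 counts in all, against 6.50, 5.77 and 9.02 CPM in DPP4+ cells (-4.68, SE 0.55, adjusted p = 2.91e-05). Most of those 15 counts came from perivascular progenitor 1, and without it the value was -5.91 (adjusted p = 3.61e-06). At both stages every perivascular library was below every inguinal one.

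Hoxc10 was almost undetected in all perivascular libraries. Perivascular preadipocytes held 0, 0 and 1 counts, against 320, 507 and 440 counts in ICAM1+ preadipocytes. The level was 1222 times higher in the ICAM1+ cells, with a 95% counting interval of 219 to 48320 that covers counting error only (adjusted p = 4.04e-08). Perivascular progenitors held 2, 1 and 1 counts, against 183, 194 and 181 counts in DPP4+ progenitors (-7.49, SE 0.52, adjusted p = 5.51e-08). Among the 8 members this was the widest depot difference at both stages.

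Of the genes beyond Hoxc10, Hoxc11 and Hotair had few counts. Hoxc11 had 0 counts in perivascular preadipocytes, against 1, 12 and 8 in ICAM1+ preadipocytes. With the 0 set to a floor of 3 counts over the group, the difference was 6.75-fold. The 95% counting interval, which covers counting error only, ran from 5.02-fold upward. It had 0 counts in perivascular progenitors, against 1, 0 and 7 in DPP4+ progenitors, so nearly all of those counts came from 1 library. Hoxc11 did not pass the filter and was not tested. Hotair, a long noncoding RNA of the HoxC cluster that work in human cells tied to silencing of HoxD, had 2 counts in perivascular preadipocytes, against 44 in ICAM1+ preadipocytes, where its level was 21.2 times higher (95% counting interval 5.54 to 181, adjusted p = 0.00343). It had 2 counts in perivascular progenitors, against 9 in DPP4+ progenitors, a difference that was not called (adjusted p = 0.13). Hoxc12 and Hoxc13 were not analysed here.

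**Figure D2:**
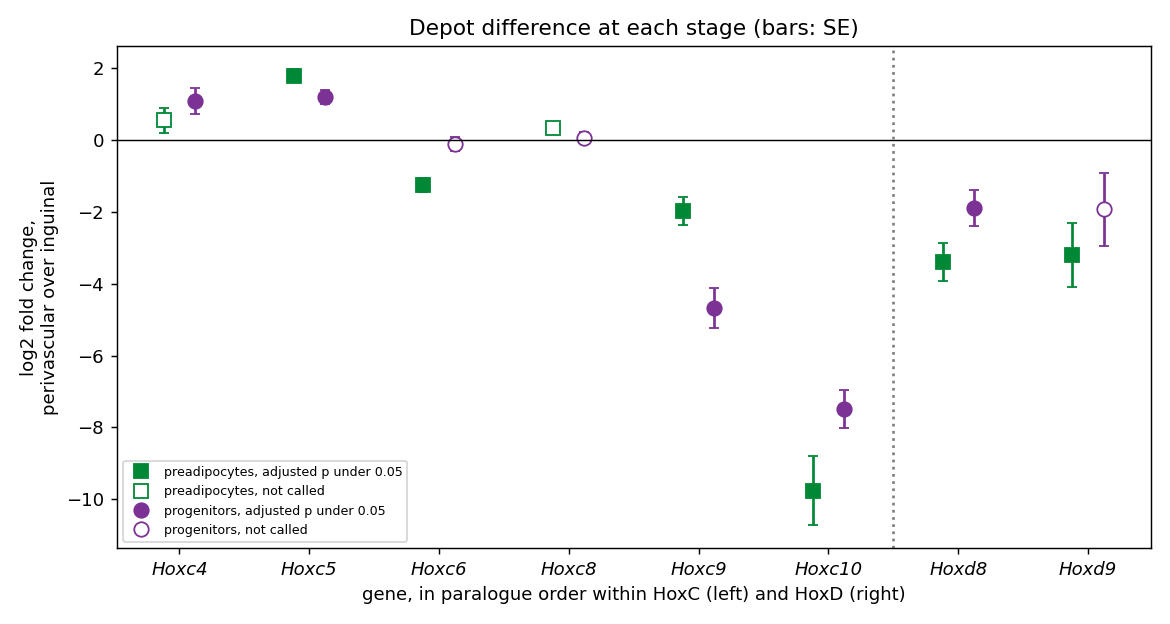
Log2 fold change of perivascular over inguinal cells (y axis) for each member in paralogue order, with SE bars; squares are preadipocytes, circles progenitors, and filled symbols have an adjusted p under 0.05. Hoxc5 is filled above 0 at both stages, at 1.80 and 1.21, and Hoxc9 and Hoxc10 are filled below 0 at both; the Hoxc10 value in preadipocytes rests on 1 perivascular count and depends on the prior count of the fit.

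Hoxd8 and Hoxd9 were low in every group. Hoxd8, a central HoxD gene, had 0.197, 0.147 and 0.644 CPM in perivascular preadipocytes, against 4.90, 3.21 and 2.31 CPM in ICAM1+ preadipocytes (-3.39, SE 0.53, adjusted p = 0.000292). In progenitors it had 0.826, 0.345 and 0.541 CPM in perivascular fat, against 2, 2.73 and 1.64 CPM in DPP4+ cells (-1.88, SE 0.50, adjusted p = 0.0153). The preadipocyte value was -4.33 (adjusted p = 0.000178) without perivascular preadipocyte 3. The groups do not overlap at either stage, but the progenitor call was lost without perivascular progenitor 2 (-1.66, adjusted p = 0.0504) or DPP4+ progenitor 2 (-1.65, adjusted p = 0.0578).

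Hoxd9, which with its paralogues Hoxa9 and Hoxb9 serves mammary gland development in mice, had 2, 3 and 1 counts in perivascular preadipocytes, against 11, 30 and 21 counts in ICAM1+ preadipocytes (-3.20, SE 0.89, adjusted p = 0.00646). In progenitors it had 5, 0 and 0 counts in perivascular fat, against 2, 7 and 5 counts in DPP4+ cells. Those groups overlap, and the difference was not called (-1.92, SE 1.02, adjusted p = 0.161). All 5 counts in perivascular progenitors came from replicate 1, and without that library the difference was called (adjusted p = 0.00888).

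Other transcripts of the HoxD cluster had few counts. Hoxd3os1, an antisense RNA of which 12.1% of the exon length overlaps Hoxd3 and Hoxd4, was lower in perivascular cells at both stages (-2.75, SE 0.56, adjusted p = 0.00125 in preadipocytes and -2.02, SE 0.50, adjusted p = 0.00926 in progenitors). No source used here says whether counting used strand, so reads from either strand of that overlap cannot be told apart. Haglr, a noncoding RNA next to Hoxd1, had 0 counts in perivascular preadipocytes, against 11 in ICAM1+ preadipocytes, and 0 in perivascular progenitors, against 4 in DPP4+ progenitors. Hoxd10 summed to 5 counts in perivascular preadipocytes, 3 in perivascular progenitors, 28 in ICAM1+ preadipocytes and 12 in DPP4+ progenitors. Hoxd12 summed to 9, 5, 2 and 5 counts in the same groups and was the exception among these genes in not being lower in perivascular preadipocytes by count. Neither was tested, and Hoxd1, Hoxd11 and Hoxd13 were not analysed here.

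Levels of different genes were set side by side per kilobase of exon. Summed over the 6 HoxC members, the level was 20.2 ± 2.81 CPM per kb in perivascular preadipocytes, 17.7 ± 1.35 in perivascular progenitors, 33.4 ± 0.380 in ICAM1+ preadipocytes and 24.03 ± 2.62 in DPP4+ progenitors (SD, n = 3 each). Hoxc8 made up 47.4 ± 5.03% of this level in perivascular preadipocytes and was the leading gene in all 3 libraries. In perivascular progenitors Hoxc6 made up 29.4 ± 4.43% and Hoxc8 27.6 ± 3.07%, which do not differ beyond their spread, with Hoxc4 at 21.8 ± 2.79% and Hoxc5 at 20.4 ± 3.56%. Hoxc10 led in both inguinal groups, with 32.3 ± 2.99% in ICAM1+ preadipocytes and 31.2 ± 3.57% in DPP4+ progenitors, against 0.0400 ± 0.0693% in perivascular preadipocytes and 0.215 ± 0.0928% in perivascular progenitors. Hoxc6 came next in both inguinal groups, at 25.9 ± 1.15% and 23.6 ± 2.88%. The place of Hoxc6 in these orders depends on the length used. With the longest transcript in place of all exon bases, Hoxc6 led in the inguinal groups, at 13.2 ± 0.661 CPM per kb against 10.8 ± 0.907 for Hoxc10 in ICAM1+ preadipocytes and at 8.62 ± 1.28 against 7.45 ± 0.520 in DPP4+ progenitors. Averaged over the 4 groups, Hoxc6 then also passed Hoxc8, at 8.85 and 8.45 CPM per kb, against 5.81 and 6.63 by all exon bases. Hoxc8 still led in perivascular preadipocytes, at 12.1 ± 0.423 CPM per kb against 5.61 ± 0.795 for Hoxc6.

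**Figure D3:**
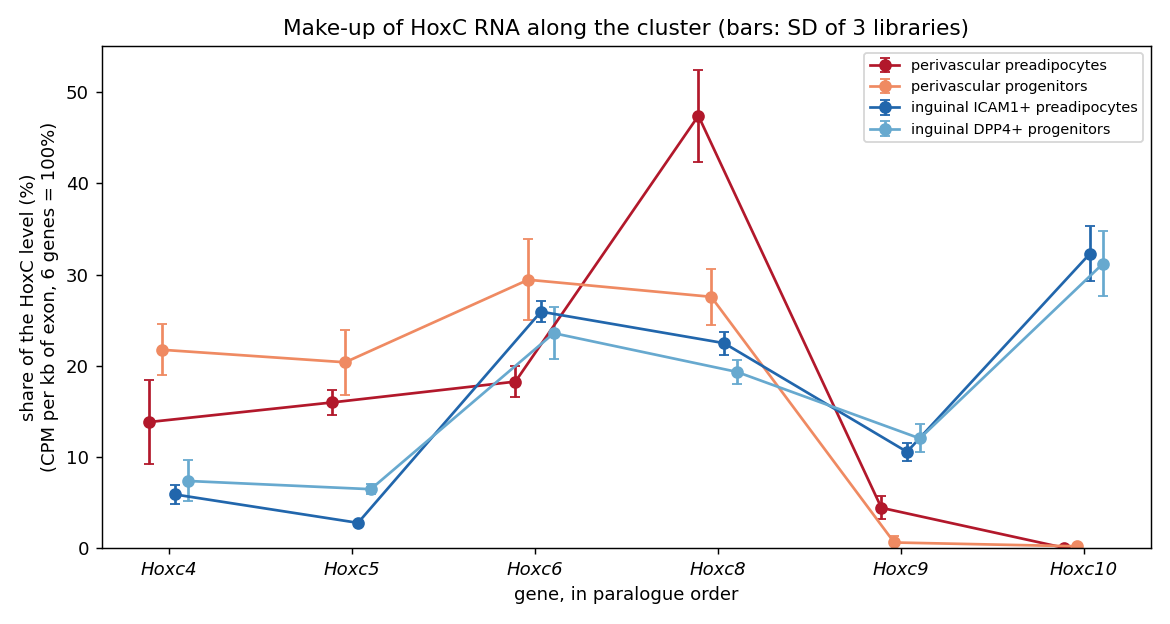
Share of each gene in the summed level of the 6 HoxC members (y axis, percent of CPM per kb) along the paralogue order, as mean and SD of 3 libraries per group. Perivascular preadipocytes peak at Hoxc8 with 47.4%, and Hoxc10 holds 31.2 to 32.3% in inguinal groups but no more than 0.322% in any perivascular library.

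The balance of Hoxc9 and Hoxc10 against Hoxc4 and Hoxc5 can be read from counts alone. It leaves out the central genes Hoxc6 and Hoxc8. It restates the depot differences given above for these genes and is no separate support for them. Hoxc9 and Hoxc10 reads made up 9.18%, 13.2% and 11.2% of the reads of Hoxc4, Hoxc5, Hoxc9 and Hoxc10 in perivascular preadipocytes and 3.14%, 1.03% and 0.533% in perivascular progenitors. The shares were 75.7%, 78.9% and 81.3% in ICAM1+ preadipocytes and 67.5%, 73.4% and 67.7% in DPP4+ progenitors. The exact binomial 95% intervals of single libraries, which cover counting error only, reached at most 17.0% in perivascular fat and went no lower than 62.7% in inguinal fat. Within perivascular fat the preadipocyte libraries were all above the progenitor libraries.

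Fewer members were called between stages than between depots, and the share of all genes called also differed between these comparisons. That share was 44.9% and 24.9% between depots, in preadipocytes and in progenitors, and is given below for the stages. In perivascular fat, 2 of 8 members were higher in preadipocytes than in progenitors and none was called lower, against 32.9% of all genes called in either direction (16.8% higher and 16.1% lower). In inguinal fat, 2 were higher and 1 lower, against 17.9% of all genes (9.34% higher and 8.61% lower). The members' median log2 fold change was -0.29 in perivascular fat and 0.58 in inguinal fat, against -0.05 and 0.02 over all genes. Hoxc8 was the member that was higher in preadipocytes in both depots, by 0.96 in perivascular fat (SE 0.15, adjusted p = 0.000878) and by 0.70 in inguinal fat (SE 0.15, adjusted p = 0.00622). All 6 preadipocyte libraries, at 20.6 to 27.8 CPM, lay above all 6 progenitor libraries, at 11.8 to 15.01 CPM. Hoxc8 is also the gene that holds the seed matches to miR-196a printed above. The microRNA was not measured, and a link to the stage difference was not tested.

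Hoxc9 rose with stage in perivascular fat. It averaged 2.21 ± 0.786 CPM in perivascular preadipocytes and 0.265 ± 0.269 CPM in perivascular progenitors (SD, n = 3 each), a log2 fold change of 3.00 (SE 0.56, adjusted p = 0.00144) that was 4.16 without perivascular progenitor 1. In inguinal fat it averaged 8.60 ± 0.893 CPM in ICAM1+ preadipocytes and 7.10 ± 1.71 CPM in DPP4+ progenitors, with overlap (0.28, SE 0.38, adjusted p = 0.695). The difference between these stage effects was itself called (interaction 2.72, SE 0.68, adjusted p = 0.0156), at 3.91 without the same library.

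Hoxc6 differed between the depots in the opposite sense. In inguinal fat it averaged 20.9 ± 1.05 CPM in ICAM1+ preadipocytes and 13.6 ± 2.03 CPM in DPP4+ progenitors (0.62, SE 0.19, adjusted p = 0.0422). In perivascular fat it averaged 8.87 ± 1.257 CPM in preadipocytes and 12.6 ± 2.45 CPM in progenitors, with overlap (-0.51, SE 0.19, adjusted p = 0.0614). The interaction was -1.12 (SE 0.27, adjusted p = 0.0167). The inguinal call was lost with no filter on low counts and when the replicate block was added (0.62, adjusted p = 0.0705 with the block). It was also lost without any 1 of 8 libraries (adjusted p up to 0.154). The perivascular difference was called by DESeq2 (-0.53, adjusted p = 0.0363) and without perivascular progenitor 1 (-0.71, adjusted p = 0.00779). The interaction stayed called without each of the 12 libraries in turn, as did that of Hoxc9.

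Hoxc5 was lower in ICAM1+ preadipocytes than in DPP4+ progenitors (-0.73, SE 0.20, adjusted p = 0.0221), with 2.88 ± 0.272 CPM and 4.78 ± 0.125 CPM and no overlap. That call was lost under scaling by library totals (-0.36, adjusted p = 0.218), with no filter on low counts (-0.69, adjusted p = 0.0586) and without any 1 of 4 libraries. Hoxc5 was not called with stage in perivascular fat (-0.15, SE 0.19, adjusted p = 0.564). Hoxc10 averaged 20.6 ± 1.73 CPM in ICAM1+ preadipocytes and 14.2 ± 0.992 CPM in DPP4+ progenitors. These groups do not overlap, and the difference was not called (0.54, SE 0.21, adjusted p = 0.112), although it was by DESeq2 (0.51, adjusted p = 0.0428) and with only those 2 groups in the fit (0.53, adjusted p = 0.00784). Hoxc4, Hoxd8 and Hoxd9 were not called with stage in either depot.

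**Figure D4:**
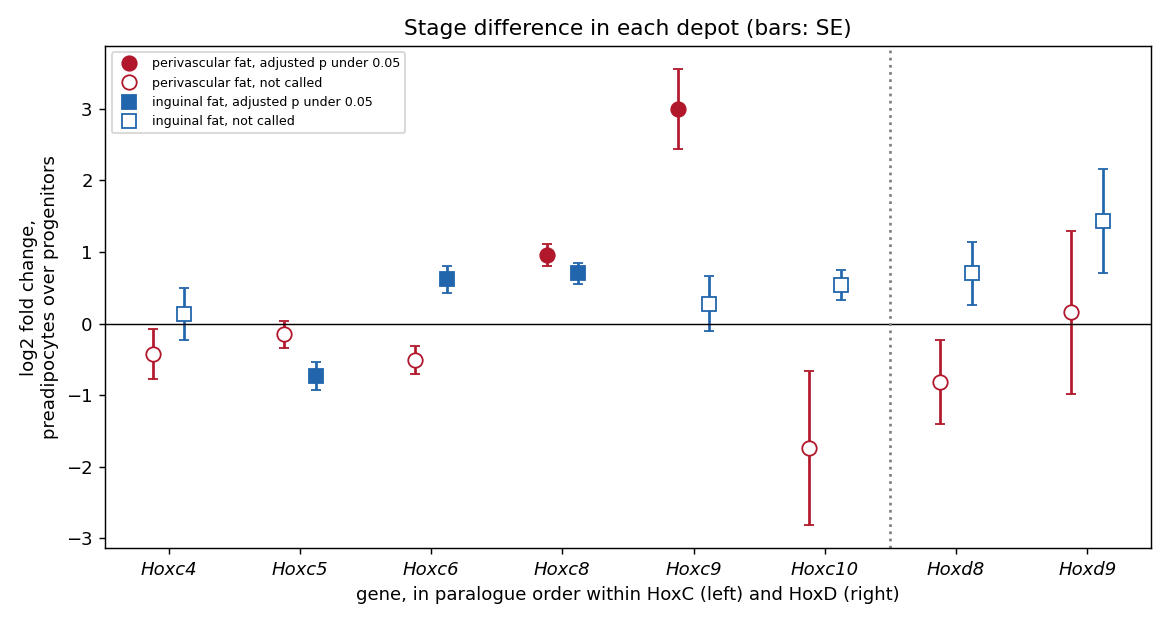
Log2 fold change of preadipocytes over progenitors (y axis) for each member in paralogue order, with SE bars; circles are perivascular fat, squares inguinal fat, and filled symbols have an adjusted p under 0.05. Hoxc8 is filled in both depots at 0.96 and 0.70, and Hoxc9 is filled in perivascular fat only, at 3.00; the perivascular Hoxc10 value rests on 1 count in preadipocytes and 4 in progenitors.

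Over all members the interaction was called for 2 of 8, 1 in each direction, against 15% of all genes (6.37% positive and 8.66% negative). For the others it was not called, including Hoxc8 (0.27, SE 0.21, adjusted p = 0.419) and Hoxc5 (0.58, SE 0.27, adjusted p = 0.166). The Hoxd8 interaction of -1.52 (SE 0.73, adjusted p = 0.174) was called without perivascular preadipocyte 3 (-2.42, adjusted p = 0.0441), and that of Hoxc5 was called (0.83, adjusted p = 0.0363) when the 3 libraries named above were left out.

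Genes of the same paralogue groups in the other clusters also differed with depot. Hoxa10 was lower in perivascular cells, by -6.53 (SE 0.44, adjusted p = 4.11e-07) in preadipocytes and -6.43 (SE 0.45, adjusted p = 4.71e-07) in progenitors on the log2 scale, and Hoxa9 by -1.23 and -1.62. Hoxa5 was higher by 4.96 and 4.50, and Hoxb5 by 4.25 and 4.54. Their fold changes were larger than those of Hoxc5, at 1.80 and 1.21. Hoxa5 varied widely among perivascular progenitor libraries, from 4.98 to 36.4 CPM. Hoxa4 was higher by 3.11 and 4.43, whereas Hoxb4 was called in progenitors (1.30, adjusted p = 0.0104) and not in preadipocytes (0.56, adjusted p = 0.141). The Hoxa4 value in progenitors rests on 3 counts over the DPP4+ group and on 0.703 to 3.51 CPM in perivascular libraries. Hoxb6 was higher by 2.11 and 2.32, whereas Hoxc6 was lower in preadipocytes. Hoxb9 was called at neither stage (0.42, adjusted p = 0.338 and -0.60, adjusted p = 0.234). Hoxa3, a paralogue of Hoxd3, was higher by 1.52 and 3.79, and Hoxa6 was called in progenitors (2.30, adjusted p = 0.0182) and not in preadipocytes (1.37, adjusted p = 0.0602). Of 9 HoxA genes tested, 5 were higher and 2 lower in preadipocytes and 7 higher and 2 lower in progenitors. Of 7 HoxB genes tested, 4 and 5 were higher and none was called lower. Over all genes, 44.9% were called in preadipocytes and 24.9% in progenitors.

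Of the TALE partners of Hox proteins in perivascular fat, 7 of 9 were lower in preadipocytes than in progenitors and none was called higher (3 lower and none higher under scaling by library totals), against 16.1% of all genes called lower, including Meis1 (-1.03, SE 0.15, adjusted p = 0.000526), Pknox2 (-1.02, SE 0.34, adjusted p = 0.0381) and Meis3 (-0.93, SE 0.19, adjusted p = 0.00331). In inguinal fat, Pknox2 (1.71, SE 0.35, adjusted p = 0.00499) and Pbx2 (0.82, SE 0.22, adjusted p = 0.0196) were higher in preadipocytes and none was called lower. The interaction was called for 5 of the 9, all negative, against 15% of all genes, with Pknox2 at -2.73 (SE 0.49, adjusted p = 0.00373). By depot, 3 were lower in perivascular preadipocytes (Pbx4, Meis3 and Pbx2) and none was called higher, a smaller share than the 44.9% of all genes called; under scaling by library totals 3 were lower and 2 higher. In progenitors Pknox2 (2.09), Meis1 (1.08) and Meis2 (0.91) were higher in perivascular fat and Meis3 (-0.66) was lower, whereas under scaling by library totals 7 were higher and none was called lower.

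Of 15 chromatin regulators of Hox clusters, 4 were higher and 5 lower in perivascular than in ICAM1+ preadipocytes, against 23.5% and 21.4% of all genes. The higher ones were the Polycomb subunits Bmi1 (2.24, SE 0.54, adjusted p = 0.00613), Suz12 (1.23, SE 0.21, adjusted p = 0.000571), Eed (1.22, SE 0.28, adjusted p = 0.0042) and Ezh2 (0.99, SE 0.20, adjusted p = 0.00162). The lower ones were the H3K27 demethylase genes Kdm6b (-1.19) and Kdm6a (-1.01), the Trithorax group genes Kmt2a (-0.95) and Kmt2d (-0.82), and Ezh1 (-0.81). Ezh1 is itself a Polycomb subunit, so the Polycomb genes went both ways. The other 6 of the list, Cbx2, Cbx7, Rnf2, Ring1, Phc1 and Jarid2, were not called. In progenitors, Suz12 was higher (0.89) and Kdm6b lower (-0.91) in perivascular fat, and no other was called, whereas under scaling by library totals 6 were higher and none was called lower. Between stages, 3 were higher and 3 lower in perivascular preadipocytes, and 2 higher and 1 lower in ICAM1+ preadipocytes, against 32.9% and 17.9% of all genes called in either direction. Under scaling by library totals, 3 were higher and 1 lower in perivascular preadipocytes, and 5 higher and none lower in ICAM1+ preadipocytes. No interaction was called for this list at an adjusted p under 0.05.

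Of 6 genes beside HoxC, 3 were higher and 1 lower in perivascular preadipocytes, and 2 were higher and none was called lower in perivascular progenitors, against 44.9% and 24.9% of all genes called. In progenitors, 4 were higher under scaling by library totals, and DESeq2 called 2 higher and 1 lower. Nfe2, an erythroid transcription factor gene, was higher at both stages (1.91, SE 0.45, adjusted p = 0.00502 and 1.89, SE 0.49, adjusted p = 0.0127), as was Hnrnpa1, an RNA-binding protein gene (1.21 and 0.75). Calcoco1 was lower in perivascular preadipocytes (-0.87). Of 4 tested genes beside HoxD, 1 was higher at each stage, Mtx2 in preadipocytes (2.21, SE 0.49, adjusted p = 0.00409) and Hnrnpa3 in progenitors (0.46, SE 0.15, adjusted p = 0.0372). No called gene of the HoxA, HoxB, TALE, chromatin and flanking lists turned direction under scaling by library totals or in DESeq2.

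As a description, the named genes whose log2 CPM most resembled that of each member over the 12 libraries were found by Pearson's r, which here mostly reflects the 4 groups that the libraries share. For Hoxc10 they were Nfkbia (0.993) and En1 (0.992), for Hoxc9 Art3 (0.966) and Gdf15 (0.963), and for Hoxc8 Plcb1 (0.965) and Gipc1 (0.959). For Hoxc6 they were Tmc4 (0.96) and Syne3 (0.951), for Hoxc5 Epyc (0.985) and Msrb2 (0.98), and for Hoxc4 H1f1 (0.898) and Brf2 (0.885). For Hoxd8 they were Nfkb1 (0.969) and 1700016G22Rik (0.964), and for Hoxd9 the epithelial marker Epcam (0.958) and Cldn19 (0.945). Among the members, Hoxc10 ran with Hoxd8 (0.93), Hoxd9 (0.82), Hoxc9 (0.80) and Hoxc6 (0.76). It ran against Hoxc5 (-0.93) and Hoxc4 (-0.64).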

How the data were processed

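Per the submitters' processing notes, reads were aligned to mm10 with STAR 2.5.2a and DESeq2 1.26.0 was used. For the counting tool, annotation and strand setting: not given in the sources used here. Libraries were made with a SMART-Seq v4 ultra-low-input poly(A) kit, per the labels' protocols. The authors deposited raw counts per gene and a normalised signal, in which each library's raw counts are divided by its own size factor. Only the raw counts were tested. The table has no column of other samples, its smallest row total is 10, and 31074 of 31099 identifiers occur in GENCODE release M21, which gave coordinates and exon lengths (10712 rows carry no symbol).

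The tests used R 4.3.3 with edgeR 4.0.16 (on limma 3.58.1), and DESeq2 1.42.0 as an alternative. After filterByExpr (minimum count 10) 18855 genes were fitted in 1 quasi-likelihood model with TMM factors, 12 libraries and 1 mean per group. Tests are two-sided, with Benjamini-Hochberg adjustment over all genes tested in a comparison. SE are Wald errors with the moderated quasi-dispersion. A prior count of 2 was used for log2 CPM. The script was tested on simulated data. No libraries were duplicates. Per the labels, equal replicate numbers are the same mouse pools, so they pair the samples. The main model did not use this pairing, and only the alternative with the replicate block did. The deviations of same-numbered libraries from their group means correlated between -0.213 and 0.105. The alternatives were library totals, DESeq2, no filter, the replicate block, only the groups compared, each library left out and, chosen after seeing the data, 3 libraries left out together. The members and gene lists were chosen with earlier results of these data known. All members are named, with up to 4 called genes of each list by size of change, the paralogues in HoxA and HoxB, and the 2 genes most like each member.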

Additional observations from a re-analysis of the deposited data

Results flagged for a closer look

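The stage effect of 2 members differed between the depots by a test of the difference itself. For Hoxc9, the log2 fold change of preadipocytes over progenitors was 3.00 in perivascular fat and 0.28 in inguinal fat, an interaction of 2.72 (edgeR adjusted p = 0.0156). All 3 perivascular preadipocyte libraries were above all 3 perivascular progenitor libraries, where the gene had 15 counts in all. For Hoxc6 the same contrast was -0.51 in perivascular fat and 0.62 in inguinal fat, an interaction of -1.12 (adjusted p = 0.0167). With each of the 12 libraries left out in turn, the Hoxc9 interaction ran from 2.25 to 3.91 and the Hoxc6 interaction from -1.3 to -1, with the call kept each time (adjusted p at most 0.0429 and 0.0476).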

How the results depend on the processing

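With library totals as the scale, 7548 genes were called between progenitors of the depots (83.7% higher, against 52.5% with TMM) and 5276 between inguinal stages (82.6% against 52.0%), and the median of all genes moved to 0.48 and 0.40. Hoxc6 then turned to 0.32 between progenitors and Hoxc5 to 0.02 between perivascular stages. With only the groups compared, 2722 and 5760 genes were called between perivascular and inguinal stages, against 6198 and 3384. Without the 3 libraries that stood apart the counts were 9762 between perivascular stages and 7723 for the interaction, against 2834, and these values turned: Hoxc8 between progenitors (0), Hoxc5 between perivascular stages (0.07), Hoxc4 between inguinal stages (-0.14) and the Hoxd9 interaction (2.14). Without a filter, 1 member was called between inguinal stages. With the longest transcript, levels were 8.85 CPM per kb for Hoxc6 and 8.45 for Hoxc8. The replicate block changed 1 call of a member, Hoxc6 between inguinal stages (0.62, adjusted p = 0.0705).

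With 1 library left out, members called ran from 3 to 6 between progenitors, 6 to 6 between preadipocytes of the depots, 2 to 3 between perivascular stages, 1 to 4 between inguinal stages and 2 to 3 for the interaction. Genes called ran from 3615 to 5781, 6610 to 9431, 3989 to 7968, 2296 to 4294 and 1686 to 5261. Single values of uncalled members turned: between progenitors, Hoxc6 (range -0.26 to 0.03) without perivascular progenitor 1, and Hoxc8 (range -0.01 to 0.17) without perivascular progenitor 2 or DPP4+ progenitor 1 (0). Between perivascular stages Hoxd9 (range -0.39 to 3.91) without preadipocyte 2 (-0.21), progenitor 2 (-0.38) or progenitor 3 turned, as did, between inguinal stages, Hoxc4 (range -0.13 to 0.45) without ICAM1+ 1 (-0.04) or DPP4+ 2, and the Hoxd9 interaction (range -1.82 to 2.5) without perivascular progenitor 1. The cause of these moves was not tested. Depth limits the HoxD members and perivascular Hoxc10, where a library holds few counts.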
